A study of Mus musculus with 20 samples.

Results

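The pyruvate dehydrogenase complex and the enzymes that switch it off and on were described here at the RNA level in mouse liver. The set held 10 genes of the 45306 in the table, found by their symbols. They were the kinases Pdk1, Pdk2, Pdk3 and Pdk4, the phosphatases Pdp1 and Pdp2, and the subunit genes Pdha1, Pdhb, Dlat and Pdhx. The genes were named with group differences of some of them in these same mice already known, so the set was in effect selected on the values it is described by. The fold changes and p-values below are therefore a description of these 20 mice and not independent evidence.

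The study sequenced the liver of 20 mice on a C57BL/6 background, as 1 library for each mouse, in 4 groups of 5 mice. Control mice were wild type (labelled WT) and kept at 24 ± 2 °C. CE mice were wild type and were placed at 4 °C for 3 h a day over 3 weeks (cold exposure). Sirt2-/- mice carried a Sirt2 knockout and stayed at room temperature, and Sirt2-/-/CE mice carried the knockout and received the same cold exposure. The knockout was made with CRISPR-Cas9 against exons 5 to 7 and acts in the whole animal, so a change in liver RNA need not arise in the liver. All mice were 5 weeks old when the experiment began, and lived on a 12-hour light and dark cycle with free food and water.

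The pyruvate dehydrogenase complex sits in the mitochondrial matrix and converts pyruvate, the end product of glycolysis, to acetyl-CoA, which feeds the TCA cycle and fat synthesis. Its first enzyme, E1, is built from the products of Pdha1 and Pdhb, its second, E2, from that of Dlat, and Pdhx encodes the protein that binds the third enzyme to the core. The kinases phosphorylate the E1 alpha subunit and stop the complex, and the phosphatases remove the phosphate and restart it. In liver the balance of kinase and phosphatase is known to shift with feeding and fasting, and Pdk4 is the kinase best known to rise with fasting and fatty acids.

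The libraries held 35499796 to 53917339 counts. Sirt2 itself was at 21.3 ± 1.00 FPKM in Control (SD, n = 5) and 12.1 ± 2.54 FPKM in Sirt2-/-, a log2 fold change of -0.94 by edgeR (SE 0.15, adjusted p = 0.0145), with no overlap between the groups. FPKM is a read count scaled to gene length and library depth. The hepatocyte markers summed to between 41370 and 79090 FPKM in every mouse, while the summed skeletal muscle and adipocyte markers were at most 1.28 and 1.01 FPKM. The summed pancreas markers were at 4.44 to 17.8 FPKM. Median correlations of log2 CPM (counts scaled to library size) with the other libraries of the same group ran from 0.933 to 0.962, lowest in Sirt2-/- replicate 14 and Sirt2-/-/CE replicate 16. A clock score (the mean log2 CPM of 5 genes high late in the rest phase minus that of 3 genes high at the opposite time) had medians of 3.13 in Control, 0.383 in CE, 0.58 in Sirt2-/- and -0.0974 in Sirt2-/-/CE. It fell under -4 in 4 mice, namely CE replicate 9, Sirt2-/- replicates 14 and 15 and Sirt2-/-/CE replicate 19. The time of collection and the sex of the mice are not given in the sources used here.

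All 10 genes were detected in all 20 mice and passed the filter on low counts, but their levels spanned more than 2 orders of magnitude. The order of mean FPKM over the 20 mice was Pdhb (83.6 ± 14.4, SD), Pdha1 (41.7 ± 5.14), Pdk2 (34.7 ± 6.04), Pdhx (11.8 ± 1.52), Dlat (10.9 ± 2.09), Pdk1 (10.7 ± 4.73), Pdp2 (6.28 ± 2.11), Pdk4 (1.15 ± 0.664), Pdp1 (0.285 ± 0.155) and Pdk3 (0.210 ± 0.106). By mean ± SD, the neighbours Pdha1 and Pdk2, the run of Pdhx, Dlat, Pdk1 and Pdp2, of which Pdp2 overlapped with Pdk1 alone, and the pair Pdp1 and Pdk3 overlapped. By the range over mice Pdp2 also overlapped with Dlat, and Pdk4 with Pdp1. Pdk3 rested on 8 to 47 counts per mouse and Pdp1 on 28 to 112. How far Pdhb stood above Pdha1 depended on the length used. Its FPKM corresponded to a length of 1553 bases, against 3861 bases of merged exons in GENCODE vM21, and per kilobase of those exons its level of 33.6 CPM was close to the 33.1 CPM of Pdha1. On that scale Dlat, at 9.32 CPM, came before Pdhx, at 7.82 CPM.

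**Figure D1:**
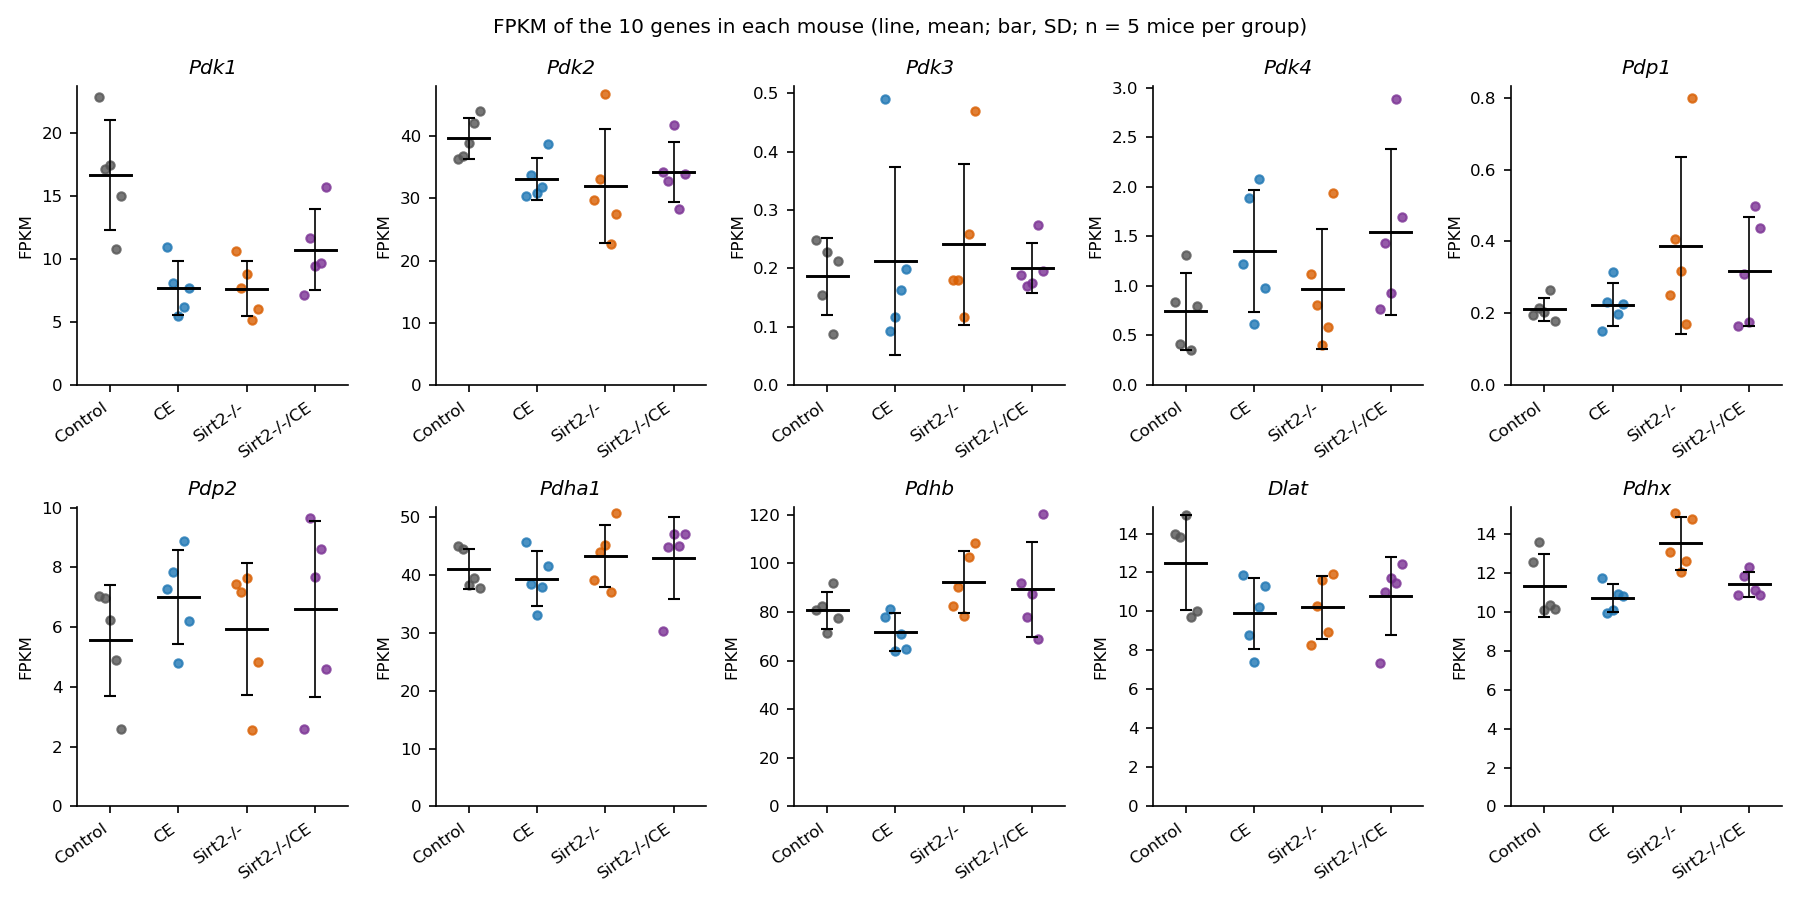
FPKM of each of the 10 genes (vertical axes, linear from 0, scales differ between panels) in each mouse of the 4 groups (points), with the group mean (line) and SD (bar). For Pdk1 the 5 Control mice (10.8 to 22.9 FPKM) lie above all Sirt2-/- mice (5.17 to 10.6 FPKM), while for Pdha1 and Pdhb the 4 groups overlap.

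Pdk1 had the lowest log2 fold change of the 10 genes in both single-factor comparisons, and passed the test in Sirt2-/- against Control. It encodes a pyruvate dehydrogenase kinase that phosphorylates E1 alpha and is a known target of the hypoxia response. Its mean FPKM was 16.7 ± 4.38 in Control (SD, n = 5), 7.70 ± 2.13 in CE, 7.65 ± 2.18 in Sirt2-/- and 10.7 ± 3.21 in Sirt2-/-/CE. The Control mice stood at 22.9, 17.1, 17.5, 10.8 and 15.03 FPKM. The CE mice stood at 10.98, 8.11, 5.52, 6.16 and 7.74 FPKM. The Sirt2-/- mice stood at 10.6, 7.70, 8.79, 5.17 and 5.9996 FPKM. The Sirt2-/-/CE mice stood at 7.15, 11.7, 9.43, 9.69 and 15.7 FPKM. The highest Sirt2-/- mouse was just under the lowest Control mouse, CE replicate 6 was just above that Control mouse by FPKM, and the mice with both factors lay between, overlapping every other group.

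Pdk1 lies on the plus strand at chr2:71873224-71903858 (mm10; 13 merged exons and 7779 exon bases in GENCODE vM21). The promoter window of its first RefSeq start site is shown because Pdk1 is the gene the group differences turn on, beside that of Pdk2, the kinase with the most reads per length. Each window runs from 250 bases before to 50 after the start site, on the gene's strand, from RefSeq on GRCm38.p6. In Pdk1, at chr2:71872974-71873273, capitals mark the GC box GGGCGG, to which Sp1 binds. In Pdk2, at chr11:95041322-95041621 on the minus strand, they mark the E-box letters CACGTG, to which basic helix-loop-helix factors bind, and the CCAAT motif, which lies there on the opposite strand and so reads ATTGG.
Pdk1: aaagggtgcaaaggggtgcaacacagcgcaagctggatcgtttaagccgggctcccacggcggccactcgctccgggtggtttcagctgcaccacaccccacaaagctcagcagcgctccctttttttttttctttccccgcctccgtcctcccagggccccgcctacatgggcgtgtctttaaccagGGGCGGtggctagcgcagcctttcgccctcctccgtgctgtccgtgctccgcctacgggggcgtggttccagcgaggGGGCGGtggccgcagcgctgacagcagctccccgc
Pdk2: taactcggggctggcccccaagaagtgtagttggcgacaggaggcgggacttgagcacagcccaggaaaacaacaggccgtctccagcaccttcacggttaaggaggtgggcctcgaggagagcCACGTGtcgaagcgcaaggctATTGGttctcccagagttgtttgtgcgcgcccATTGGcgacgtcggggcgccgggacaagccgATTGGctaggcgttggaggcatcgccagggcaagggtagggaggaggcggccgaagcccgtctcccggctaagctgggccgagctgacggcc
The Pdk1 window had 66.0% G and C and 25 CpG pairs, against medians of 52.7% and 7 over 32851 promoters. GGGCGG stood in it at -62 and 16 from the start site, and 35.7% of all promoters hold these letters on either strand. In Pdk2 the E-box letters stood at -126 and the CCAAT letters at -105, -73 and -42, and 7.15% and 37.4% of all promoters hold them. The windows of 9 genes were found, with none for Pdp1. Other motifs were searched on both strands and stood in none of the 11 windows of these genes. They were TGACCTTG, to which estrogen-related receptors bind and which 1.56% of all promoters hold, the forkhead motif GTAAACA (3.65%), the D-box TTATGTAA (0.938%) and the ETS motif CGGAAG (16.9%).

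In CE against Control, Pdk1 had a log2 fold change of -1.09 (SE 0.24, edgeR), a ratio of 0.468 with a 95% interval of 0.332 to 0.661. Over all 15616 genes tested its adjusted p was 0.139 by edgeR, rank 19, so it did not pass the threshold of 0.05. DESeq2 put its adjusted p at 0.00608 and limma voom with sample quality weights at 0.00617 on nearly the same fold change, and edgeR at 0.0285 without Control replicate 4. DESeq2 called 1.2% of all genes in that comparison and limma voom 3.46%. On CPM scaled by TMM factors (trimmed mean of M-values), the Control and CE mice did not overlap, which held for 1 of the 10 genes and 3.04% of all genes tested. Of all genes tested, 0.0064% (1 gene) passed the adjusted threshold in CE against Control, none of them among the 10, and 10.7% had an unadjusted p under 0.05, which in this set were Pdk1 and Dlat. With the clock score as a covariate the log2 fold change of Pdk1 in CE against Control was -0.82 (adjusted p = 0.215, edgeR). All 5 endothelial markers and 5 of 6 stellate cell markers had lower fitted values in CE, as had all 5 erythroid markers, and 4 of 5 Kupffer markers had higher ones. Of these lists 1 endothelial marker had an unadjusted p under 0.05 and 0 markers passed. The endothelial markers summed to 14.2 to 70.5 FPKM in Control and 9.26 to 47.5 in CE, and the stellate markers to 34.6 to 78.5 and 10.8 to 63.5 FPKM.

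In Sirt2-/- against Control, Pdk1 fell, with a log2 fold change of -1.25 (SE 0.24, adjusted p = 0.0307, edgeR), a ratio of 0.420 with a 95% interval of 0.297 to 0.593. It was lower in 5 of 5 Sirt2-/- mice than the Control mean, did not overlap with Control and ranked 20 of 15616 by p. Of the 10 genes it was the 1 that passed, where 0.89% of all genes (139) did. No overlap of the groups was found for Pdk1 alone among the 10, against 3.61% of all genes, and an unadjusted p under 0.05 for 4 of the 10 (Pdk1, Pdk2, Dlat and Pdp1), against 14.9%. The call was sensitive to single mice, since the adjusted p by edgeR rose to between 0.0580 and 0.103 without Control replicate 1, 2 or 3 or without Sirt2-/- replicate 12, 14 or 15. With these 2 groups alone in the fit it was 0.0621.

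Pdk1 was also set beside the clock score, with which it had no relation that passed after adjustment. Across the 20 mice, deviations from the group mean of Pdk1 log2 CPM and of the score had Pearson's r = 0.604 (permutation p = 0.0194, adjusted over the 10 genes 0.130) and Spearman's rho = 0.585 (permutation p = 0.0194, adjusted 0.194). Without the 2 mice farthest from the median score r was 0.514. With the score as a covariate, the Sirt2-/- against Control log2 fold change was -0.90 (adjusted p = 0.227, edgeR), and without the 4 mice of low score, an alternative added after the data were seen, it was -0.99 (adjusted p = 0.321, edgeR). Under that covariate 0 genes of the whole table passed. The totals of Sirt2-/- (36004846 to 42142304 counts) and Control (44222098 to 53917339 counts) did not overlap. All 5 Kupffer cell and macrophage markers found in the table and all 5 endothelial markers had higher fitted values in Sirt2-/- than in Control, and 0 of them passed. Of 6 stellate cell markers 2 were higher and 4 lower, and 1 of the 6 passed. All 5 erythroid markers were lower and 0 passed, with 1 at an unadjusted p under 0.05. Of the 8 hepatocyte markers 2, and of the cholangiocyte and pancreas markers 1 each, had an unadjusted p under 0.05 and 0 passed. The Kupffer markers summed to 27.3 to 81.1 FPKM in Control and 57.4 to 97.7 in Sirt2-/-, and the endothelial markers to 14.2 to 70.5 and 30.0 to 76.6 FPKM. No Kupffer, endothelial, stellate, erythroid or hepatocyte marker averaged under 0.5 FPKM, whereas 1 cholangiocyte and 3 pancreas markers did. The part of cell mixture and of depth in the Pdk1 values of any comparison was not tested. In whole liver, fewer cells of a type and less RNA per cell cannot be told apart.

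Among Sirt2-/- mice the cold comparison had the opposite sign and did not pass. Pdk1 had a log2 fold change of 0.56 in Sirt2-/-/CE against Sirt2-/- (SE 0.24, adjusted p = 0.627, edgeR), and the groups overlapped. On TMM-scaled CPM 5 of 5 Sirt2-/-/CE mice were above the Sirt2-/- mean, and by FPKM 4 of 5 were, with replicate 16 at 7.15 against a mean of 7.65 FPKM. Of all genes 7.25% had an unadjusted p under 0.05 there and 0% (0 genes) passed the adjusted threshold, 0.743% did not overlap between the groups, and in the set Pdk1 alone had p under 0.05. All 5 Kupffer and all 5 erythroid markers had higher fitted values there, 2 of 2 tested pancreas markers, 1 hepatocyte and 1 stellate marker had an unadjusted p under 0.05, and 0 passed. In Sirt2-/-/CE against CE the log2 fold change of Pdk1 was 0.41 (SE 0.24, adjusted p = 0.897, edgeR). All 5 endothelial markers had higher values there at an unadjusted p under 0.05 and 0 passed, with sums of 52.4 to 80.3 FPKM against 9.26 to 47.5 in CE. All 5 Kupffer markers were also higher there, 2 of them and 2 of 5 cholangiocyte markers at an unadjusted p under 0.05, and 0 passed. Of 6 stellate markers 5 were higher there. An unadjusted p under 0.05 held for 1 stellate and 1 of 2 tested pancreas markers, and 0 passed. In Sirt2-/-/CE against CE 0.0128% of all genes passed (2 genes), 6.09% had an unadjusted p under 0.05 and 1.22% did not overlap, and 0 of the 10 genes met any of these. Between the cold changes of the 2 genotypes, the difference in log2 fold change (interaction of genotype and cold) was 1.66 (SE 0.34), rank 5 of 15616, with an adjusted p of 0.208 by edgeR, 0.00527 by DESeq2 and 0.0688 by limma voom with sample quality weights. DESeq2 called 0.263% of all genes for the interaction. With the clock score as a covariate the difference for Pdk1 was 1.37 (adjusted p = 0.591, edgeR). Without the 4 mice of low score it was 1.32 (adjusted p = 0.767, edgeR). By edgeR 0% of all genes passed for the interaction and 8.34% had an unadjusted p under 0.05. Among the 10 these were Pdk1 and Dlat. All these comparisons share groups: the same Control mice are on one side of both single-factor comparisons.

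**Figure D2:**
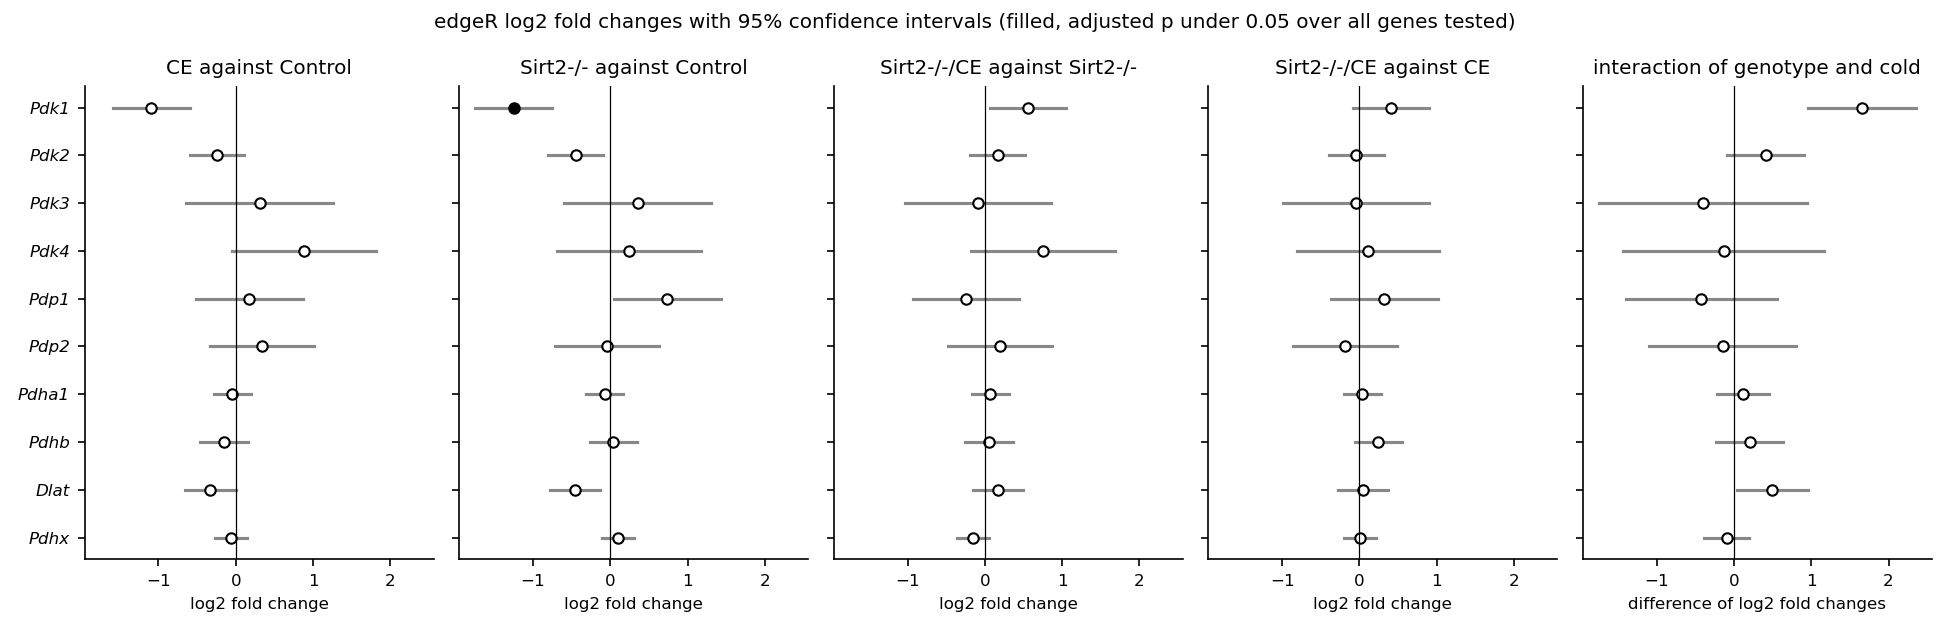
edgeR log2 fold changes (points) with 95% confidence intervals (lines) of the 10 genes in the 4 comparisons of groups and, at the right, the difference of log2 fold changes for genotype and cold. The 1 filled point, Pdk1 in Sirt2-/- against Control at -1.25, has an adjusted p under 0.05, and Pdk1 lies right of 0 in Sirt2-/-/CE against Sirt2-/- at 0.56.

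Pdk2 is the kinase that held most of the kinase reads per length in these livers and is known as the broadly expressed family member. It lies on the minus strand at chr11:95026258-95041354 (mm10; 12 merged exons). Its mean FPKM was 39.7 ± 3.34 in Control (SD, n = 5), 33.1 ± 3.38 in CE, 32.0 ± 9.14 in Sirt2-/- and 34.2 ± 4.85 in Sirt2-/-/CE. The Control mice stood at 36.4, 36.8, 38.9, 42.2 and 44.0 FPKM and the CE mice at 30.5, 33.7, 30.9, 31.8 and 38.7 FPKM. The Sirt2-/- mice stood at 29.7, 33.0, 46.9, 22.7 and 27.5 FPKM and the Sirt2-/-/CE mice at 34.2, 32.8, 41.8, 28.4 and 33.9 FPKM. Sirt2-/- replicate 13 was the highest of all 20 mice, while the other 4 mice of its group were below every Control mouse.

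The log2 fold change of Pdk2 in Sirt2-/- against Control was -0.45 (SE 0.17, adjusted p = 0.208, edgeR). Without Sirt2-/- replicate 13 it was -0.65 (adjusted p = 0.0227), a value chosen for mention after that mouse was seen, and without the 4 mice of low clock score it was -0.22 (adjusted p = 0.814). Its within-group deviations and those of the clock score had r = 0.633 (permutation p = 0.0260, adjusted 0.130) and rho = 0.406 (permutation p = 0.138, adjusted 0.461), and r = 0.602 without the 2 mice of most extreme score. In CE against Control it was -0.24 (SE 0.17, adjusted p = 0.662), with a 95% interval of -0.60 to 0.11, and -0.06 with the clock score as a covariate (adjusted p = 0.943, edgeR). The interaction of genotype and cold was 0.41 (SE 0.24, adjusted p = 0.679, edgeR), 0.21 with that covariate (adjusted p = 0.950) and 0.18 without the 4 mice of low score (adjusted p = 0.872).

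Pdk4 (chr6:5483351-5496309, mm10, minus strand) was low in all groups. It was at 0.836, 0.417, 1.31, 0.348 and 0.799 FPKM in the Control mice and at 1.22, 1.89, 0.612, 2.08 and 0.982 FPKM in the CE mice. It was at 1.12, 0.803, 0.408, 0.583 and 1.94 FPKM in the Sirt2-/- mice and at 0.768, 1.43, 0.929, 2.89 and 1.70 FPKM in the Sirt2-/-/CE mice. The means of both cold groups were above those of the matching room temperature groups, with wide overlap. The log2 fold changes were 0.89 in CE against Control (SE 0.45, adjusted p = 0.502, edgeR) and 0.75 in Sirt2-/-/CE against Sirt2-/- (SE 0.44, adjusted p = 0.765). The 95% interval of the first ran from -0.04 to 1.82, a ratio of 3.52 at its upper end. In Sirt2-/- against Control it was 0.24 (SE 0.45, adjusted p = 0.853). With the clock score as a covariate Pdk4 was at 0.46 in CE (adjusted p = 0.779, edgeR) and at -0.32 in Sirt2-/- against Control (adjusted p = 0.989). Pdk3, an X-linked kinase more often described outside the liver, ranged from 0.0875 to 0.491 FPKM, and its log2 fold changes between groups ran from -0.09 to 0.36 with SEs of 0.45 to 0.46. Its counts were 8 to 47 per mouse, and the 95% interval in Sirt2-/- against Control ran from 0.662 to 2.47 as a ratio.

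Pdk1 and Pdk2 made up nearly all kinase FPKM, and the share of Pdk1 was highest on average in Control. Pdk1 held 28.9 ± 6.71% of the summed kinase FPKM in Control (SD, n = 5), 18.1 ± 4.36% in CE, 18.9 ± 3.86% in Sirt2-/- and 22.8 ± 5.56% in Sirt2-/-/CE. Pdk2 held 69.5 ± 7.04%, 78.2 ± 4.86%, 77.9 ± 4.40% and 73.3 ± 6.72% in the same order. Pdk4 held 1.28 ± 0.637%, 3.202 ± 1.496%, 2.55 ± 1.74% and 3.40 ± 2.14%, and Pdk3 under 1% on average in every group. Single mice overlapped, with Pdk1 shares of 20.2% to 37.9% in Control, 14.9% to 25.5% in CE and 15.6% to 25.5% in Sirt2-/-. By CPM, without gene length, Pdk1 held 47.7%, 33.0%, 34.2% and 39.7% and Pdk2 50.7%, 62.7%, 62.1% and 56.0% in Control, CE, Sirt2-/- and Sirt2-/-/CE, so the size of the shares depends on the gene lengths used. These shares follow from the levels above and carry no test of their own.

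**Figure D3:**
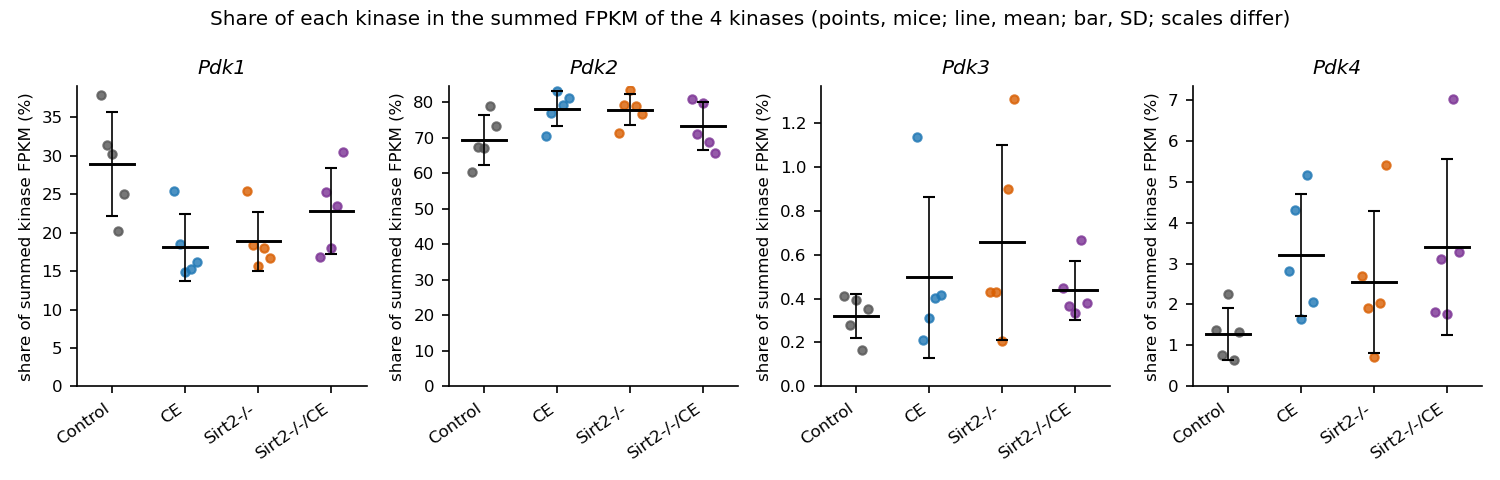
Share of each kinase in the summed FPKM of the 4 kinases (vertical axes in percent, from 0, scales differ between panels) for each mouse (points), with the group mean (line) and SD (bar). Pdk1 averaged 28.9% in Control and 18.1% to 22.8% in the other groups, and Pdk2 69.5% against 73.3% to 78.2%.

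The summed kinase FPKM was 57.3 ± 3.19 in Control (SD, n = 5), 42.4 ± 3.97 in CE, 40.8 ± 10.1 in Sirt2-/- and 46.7 ± 5.13 in Sirt2-/-/CE. Divided by the FPKM of Pdha1, whose product the kinases act on, it was 1.403 ± 0.146 in Control, 1.08 ± 0.0851 in CE, 0.947 ± 0.216 in Sirt2-/- and 1.11 ± 0.177 in Sirt2-/-/CE. The Control ratios of 1.23 to 1.59 were all above those of CE, 0.942 to 1.14, and overlapped those of Sirt2-/-, 0.708 to 1.24, and of Sirt2-/-/CE, 0.915 to 1.39. The ratio within a mouse does not depend on how libraries are scaled, though its level depends on the gene lengths used. It describes RNA and says nothing of the amount or activity of the enzymes.

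The phosphatases showed no passing change. Pdp2, which is known as the insulin-responsive form, supplied 93.4% to 96.7% of the phosphatase FPKM on average per group. It was at 5.55 ± 1.87 FPKM in Control (SD, n = 5), 7.004 ± 1.56 in CE, 5.93 ± 2.20 in Sirt2-/- and 6.62 ± 2.94 in Sirt2-/-/CE. Mice of a group differed widely, from 2.59 to 7.05 FPKM in Control and from 2.58 to 9.65 in Sirt2-/-/CE, and the log2 fold changes lay between -0.18 and 0.34 with SEs of 0.32. Pdp1, the calcium-responsive form, was at 0.211 ± 0.0323 FPKM in Control and 0.388 ± 0.246 in Sirt2-/-. Its log2 fold change in Sirt2-/- against Control was 0.74 (SE 0.33, adjusted p = 0.293, edgeR). The Sirt2-/- mice stood at 0.250, 0.406, 0.317, 0.169 and 0.801 FPKM, so 1 mouse with 112 counts supplied much of that mean.

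The subunit genes Pdha1, Pdhb and Pdhx had small fold changes between groups, and Dlat is described apart below. Pdha1 (chrX:160122209-160138413, mm10, minus strand), the E1 alpha subunit that the kinases phosphorylate, was at 41.1 ± 3.48 FPKM in Control (SD, n = 5), 39.4 ± 4.72 in CE, 43.3 ± 5.35 in Sirt2-/- and 42.9 ± 7.11 in Sirt2-/-/CE. Its log2 fold changes ran from -0.07 to 0.07 with SEs of 0.11. The 95% intervals of CE and of Sirt2-/- against Control were 0.822 to 1.14 and 0.805 to 1.12 as ratios. Pdhb, the E1 beta subunit, was at 80.7 ± 7.57, 71.8 ± 7.76, 92.4 ± 12.7 and 89.3 ± 19.4 FPKM in Control, CE, Sirt2-/- and Sirt2-/-/CE. Its log2 fold changes ran from -0.15 to 0.25 with SEs of 0.15. Pdhx, the E3-binding protein, was at 11.4 ± 1.62, 10.7 ± 0.721, 13.5 ± 1.35 and 11.4 ± 0.641 FPKM, with log2 fold changes from -0.16 to 0.10 and SEs of 0.10.

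FPKM and the scaled counts differed in Sirt2-/-. Relative to the TMM scale, scaling by library size alone moved the median of all genes by 0.141 on the log2 scale in Sirt2-/- against Control. By library size alone Pdha1 was at 0.07 and Pdp2 at 0.09 there, against -0.07 and -0.04 by TMM, so no direction is given for these genes. Pdk1 (-1.13), Pdk2 (-0.31) and Dlat (-0.31) kept their sign.

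Dlat, the E2 acetyltransferase gene (chr9:50634633-50659780, mm10, minus strand), came next to Pdk1 by unadjusted p in both single-factor comparisons and for the interaction. The Control mice stood at 13.97, 13.8, 14.96, 9.73 and 10.02 FPKM and the CE mice at 11.9, 8.77, 7.43, 10.2 and 11.3 FPKM. The Sirt2-/- mice stood at 8.28, 10.3, 11.6, 8.94 and 11.9 FPKM and the Sirt2-/-/CE mice at 7.37, 11, 11.7, 11.5 and 12.5 FPKM. Control held 3 mice above all the others of the 20, and its lower 2 lay within the range of each other group. The log2 fold changes of Dlat were -0.33 in CE (SE 0.16, adjusted p = 0.461, edgeR) and -0.45 in Sirt2-/- against Control (SE 0.16, adjusted p = 0.160). For the latter limma voom with sample quality weights gave an adjusted p of 0.02, where it called 5.8% of all genes. DESeq2 gave an adjusted p of 0.0976, and edgeR with scaling by library size alone 0.335. With the clock score as a covariate that log2 fold change was -0.44 (adjusted p = 0.603, edgeR). Without the mice of low clock score it was also -0.44 (adjusted p = 0.604, edgeR). The interaction of genotype and cold was 0.50 (SE 0.22, adjusted p = 0.564, edgeR). The ratio of Pdhx to Dlat FPKM was 0.928 ± 0.153 in Control, 1.10 ± 0.161 in CE, 1.35 ± 0.213 in Sirt2-/- and 1.09 ± 0.230 in Sirt2-/-/CE (SD, n = 5 each).

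Over the 10 genes, the median log2 fold change was -0.06 in CE against Control, 0.00044 in Sirt2-/- against Control, 0.12 in Sirt2-/-/CE against Sirt2-/- and 0.04 in Sirt2-/-/CE against CE. Over all genes tested these medians were -0.01, 0.02, 0.01 and 0.02. In Sirt2-/- against Control 5 of the genes had higher and 5 lower fitted values on the TMM scale, and 7 higher and 3 lower by library size alone.

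The subunits were also compared with each other across mice of the same group, which uses none of the group differences. For each of the 45 pairs of genes, the deviations of log2 CPM from the group means were correlated over the 20 mice. Pdha1 and Dlat had Pearson's r = 0.790 (permutation p = 0.00019, adjusted over the 45 pairs 0.00855) and Spearman's rho = 0.761 (permutation p = 0.00027, adjusted 0.0122), and r = 0.742 without the 2 mice of most extreme Pdha1 deviation. That pair alone of the 45 passed. The next by the p of r was Pdk2 and Pdk3, with r = -0.508 (permutation p = 0.0304, adjusted 0.328) and rho = -0.486 (permutation p = 0.0385, adjusted 0.407). The next by the p of rho was Pdp2 and Pdhb, with rho = -0.669 (permutation p = 0.00593, adjusted 0.133) and r = -0.503 (permutation p = 0.0534, adjusted 0.328). Sirt2-/-/CE replicate 16 was the lowest of its group in both Pdha1 and Dlat. The mice share a scaling per library, which any pair of genes has in common.

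**Figure D4:**
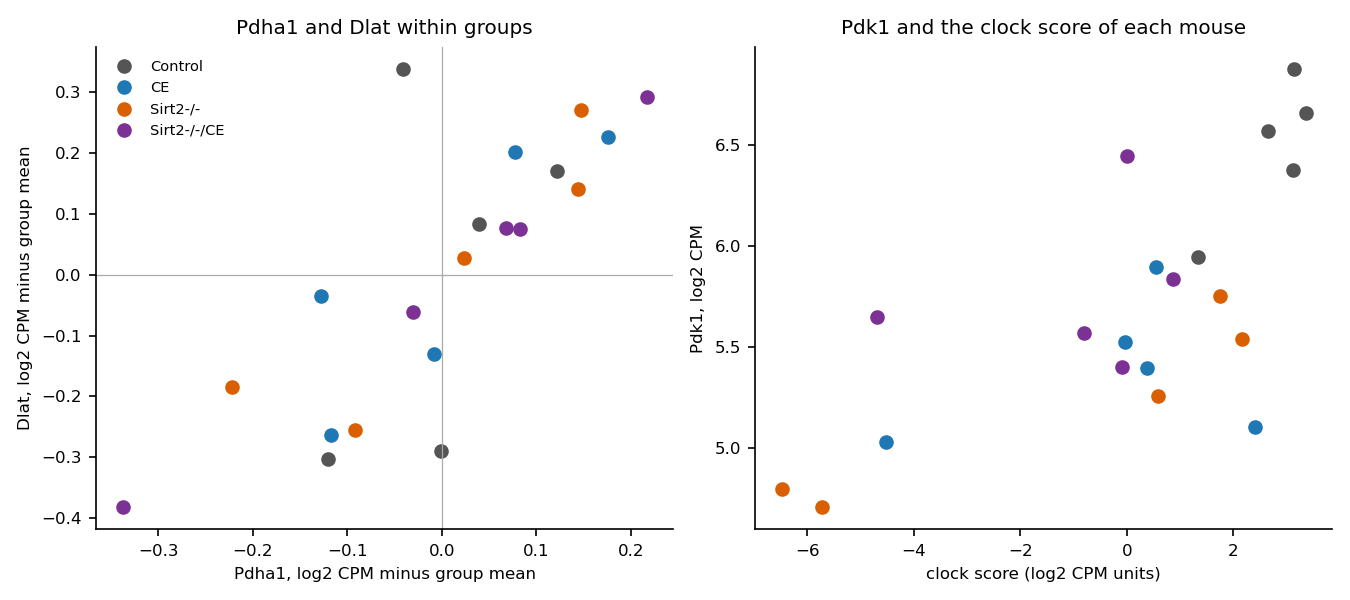
Left, deviation from the group mean of Dlat against that of Pdha1, both in log2 CPM, for each mouse (points, coloured by group; r = 0.790). Right, Pdk1 log2 CPM against the clock score of each mouse (both in log2 units), where the Control mice with scores of 1.33 to 3.36 lie at the upper right and the Sirt2-/- mice with the lowest scores at the lower left. CE replicate 8, with a score of 2.42, stood at 5.10, and Sirt2-/-/CE replicate 19, with -4.69, at 5.65. The values at the right are not centred by group, so they hold the group differences.

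The genes most like Pdk2 and Pdk4 in their within-group deviations were searched among the 10590 genes that averaged 1 FPKM or more. For Pdk2 these were Ypel5 (r = 0.865), Ghitm (0.823) and Rnf19b (0.810) over the 20 mice. For Pdk4 they were Cyp20a1 (0.798), Adamts1 (0.764) and Tnfrsf21 (0.742). For Pdk1, a search added after its values were seen, they were Nln (0.837), an unnamed predicted gene (0.817) and Cyp2c54 (0.817). Each is the top of a long search and is given as a description.

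Around the complex, 16 genes of pyruvate supply and its other fates were in the table, and 15 were tested. None passed in any comparison by edgeR, with 2 at an unadjusted p under 0.05 in each of the 4 comparisons of groups and 4 for the interaction. Over all genes these shares were 10.7% in CE and 14.9% in Sirt2-/- against Control, 7.25% in Sirt2-/-/CE against Sirt2-/-, 6.09% in Sirt2-/-/CE against CE and 8.34% for the interaction. Pklr, the pyruvate kinase of liver, was at 84.8 ± 39.2 FPKM in Control (SD, n = 5), 36.0 ± 10.1 in CE and 39.6 ± 8.57 in Sirt2-/-. Its log2 fold changes were -1.22 (SE 0.33, adjusted p = 0.193, edgeR) and -1.25 (SE 0.33, adjusted p = 0.0684), and in both cases the groups did not overlap. Ldhb, a lactate dehydrogenase subunit of low level in liver, was at 0.879 ± 0.131 FPKM in CE and 2.46 ± 1.21 in Sirt2-/-/CE (log2 fold change 1.42, SE 0.32, adjusted p = 0.405). Me1, the cytosolic malic enzyme that forms pyruvate, was at 33.7 ± 4.19 FPKM in Sirt2-/- and 49.2 ± 8.20 in Sirt2-/-/CE (0.62, SE 0.20, adjusted p = 0.543).

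In the list of 10 genes that use acetyl-CoA or supply it, 2 fell in Sirt2-/- against Control, where 0.89% of all genes passed, and 0 passed elsewhere. Acss2, which makes acetyl-CoA from acetate, went from 63.7 ± 7.41 to 23.97 ± 7.62 FPKM (log2 fold change -1.51, SE 0.28, adjusted p = 0.0271, edgeR). Slc25a1, the mitochondrial citrate carrier, went from 115 ± 16.3 to 77.4 ± 10.6 FPKM (-0.70, SE 0.14, adjusted p = 0.0352). Of the rest, 3 more had lower and 1 had higher values at an unadjusted p under 0.05, against 14.9% of all genes, and the median log2 fold change of the list was -0.45, against 0.02 over all genes tested. Acacb, an acetyl-CoA carboxylase, was at 7.23 ± 2.46 FPKM in Control and 3.08 ± 1.00 in Sirt2-/- (-1.43, SE 0.35, adjusted p = 0.0518).

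Of 13 partners and cofactor genes of the complex 11 were tested, and of 9 genes of its sister complexes 8 were. None of either list passed by edgeR, with 2 of the partners and 2 of the sister genes at an unadjusted p under 0.05 in Sirt2-/- against Control, where 14.9% of all genes had one. Sirt3, a mitochondrial deacetylase, was at 55.1 ± 10.1 FPKM in Control and 43.1 ± 10.99 in Sirt2-/- (log2 fold change -0.48, SE 0.18, adjusted p = 0.190). In the branched-chain keto acid dehydrogenase, which is built like the pyruvate complex, Bckdhb was at 41.9 ± 3.85 FPKM in Control and 28.5 ± 3.33 in Sirt2-/- (-0.70, SE 0.17, adjusted p = 0.0578). Its kinase Bckdk was at 2.75 ± 0.490 and 4.41 ± 0.926 FPKM (0.55, SE 0.17, adjusted p = 0.131), so the fitted values of this kinase and of Pdk1 lay on opposite sides of 0. In Sirt2-/-/CE against Sirt2-/- the signs were reversed, with Bckdhb at 0.489 and Bckdk at -0.495 (adjusted p = 0.559 each, edgeR). Both had an unadjusted p under 0.05 there (7.25% of all genes) and for the interaction (8.34%). Of the partners 1 had one there, 1 in Sirt2-/-/CE against CE (6.09% of all genes) and 2 for the interaction.

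All 25 genes of the list of kinase regulators and their other targets were tested, and 1 passed, in Sirt2-/- against Control, where 0.89% of all genes did. At an unadjusted p under 0.05 there, 4 were higher and 4 lower, against 14.9% of all genes. Cyp4a14, a fatty acid hydroxylase induced by PPAR alpha, rose from 91.9 ± 49.99 FPKM in Control to 803 ± 328 in Sirt2-/- (log2 fold change 2.97, SE 0.51, adjusted p = 0.0199, edgeR). It belongs to a family of close copies, so its reads may be partly shared, and how the authors' counting treats these is not given in the sources used here. Txnip, a glucose-responsive gene, was at 42.6 ± 40.5 FPKM in Control and 8.64 ± 3.48 in CE (-2.33, SE 0.44, adjusted p = 0.0867). Irs2, an insulin receptor substrate, was at 5.88 ± 4.89 FPKM in Control, 1.45 ± 1.02 in CE and 1.70 ± 1.14 in Sirt2-/-, with adjusted p of 0.337 and 0.224 by edgeR.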

How the data were processed

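Messenger RNA was selected with oligo(dT) from the livers of 20 mice and read on a NovaSeq instrument. The authors deposited 1 table with whole-number read counts and FPKM values for each gene and mouse; the counts are not normalized, and the FPKM values are scaled to gene length and depth. The submitters' processing notes name the build mm10. The aligner, the counting tool and its handling of strand and shared reads are not given in the sources used here. Lines that name no gene (9) were dropped.

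Counts of 35499796 to 53917339 per mouse were filtered with edgeR's filterByExpr (minimum count 10, minimum total 15), which left 15616 genes and at least 99.94% of each library. One quasi-likelihood fit of the 20 libraries by group used TMM scaling (R 4.3.3, edgeR 4.0.16), with Benjamini-Hochberg adjustment over all genes tested and a threshold of 0.05. Precision was set by this depth and by how far the 5 mice of a group differed. The paper's methods give a two-tailed Student's test and no count model. Nothing states that the mice of a group came from separate cages or days, so p-values measure the spread between these mice. Replicate numbers are unique to each mouse. No paired analysis was possible because the groups share no replicate number. Of the 190 pairs of libraries, none had a median chi-square over genes under 5.12, against 0.455 for sampling noise, so no library was counted as a repeat.

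DESeq2 1.42.0, limma voom with sample quality weights (3.58.1), other scalings and filters, 2 groups alone, a clock covariate and leaving out mice served as alternatives. The clock score used Dbp, Tef, Per3, Ciart and Nr1d2 against Arntl, Npas2 and Clock. Correlations used log2 CPM with a prior count of 2, centred by group, with 100000 permutations within groups. The genes, the 5 pathway lists, the markers, the motifs and the tests were chosen with earlier results of these data known. Beside these 10 genes and Sirt2, the text names from each list every gene that passed and the 2 with the largest change at an unadjusted p under 0.05 in a comparison, as far as they bear on the account (1 such gene is not reported here), and the 3 genes most like Pdk2 and Pdk4. Exons came from GENCODE vM21 and promoters from RefSeq (GRCm38.p6), both of the same build as mm10. Pdha1 shares 603 of 3734 exon bases with Map3k15 on the other strand, which held 0.266% to 1.59% of the counts of both. Pdhb has a copy, Gm6123, with 97.0% identity over 1079 bases, which held 0.163% to 0.531% of the counts of both.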

Additional observations from a re-analysis of the deposited data

Results flagged for a closer look

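In Dixon's test at 95% (critical value 0.71 for 5 mice) 4 of the 40 sets of 5 mice had a mouse apart from the rest, where chance gives about 1 in 20. Pdk3 stood at 0.491 FPKM in CE replicate 6 and at 0.274 FPKM in Sirt2-/-/CE replicate 19, from 47 and 25 counts. Pdha1 stood at 30.4 FPKM and Dlat at 7.37 FPKM in Sirt2-/-/CE replicate 16, each the lowest of its group. That library also had the second lowest median correlation with its own group, at 0.933. The fitted cold change of Pdk1 had opposite signs in the 2 genotypes, and passed in neither by edgeR. Its log2 fold change was -1.09 in CE against Control (adjusted p = 0.139) and 0.56 in Sirt2-/-/CE against Sirt2-/- (adjusted p = 0.627). The latter was 0.32 without the 4 mice of low clock score (adjusted p = 0.840, edgeR). By limma voom with sample quality weights it was 0.37 (adjusted p = 0.8125). On TMM-scaled CPM 5 of 5 CE mice lay below the Control mean. On that scale 5 of 5 Sirt2-/-/CE mice lay above the Sirt2-/- mean, though by FPKM this held for 4 of 5. The difference of the log2 fold changes was 1.66 (SE 0.34, edgeR), with an adjusted p of 0.208 over all genes, between 0.0723 and 0.385 when single mice were left out, and 0.00527 by DESeq2.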

How the results depend on the processing

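Of the 10 genes, 1 passed in Sirt2-/- against Control (Pdk1), where 0.89% of all genes did. By limma voom (run with sample quality weights throughout) 2 passed, where 5.8% of all genes did. In that comparison 0 passed with the clock covariate, with 2 groups alone or without the 4 mice of low clock score. When single mice were left out 0 to 2 passed. The 2 came without Sirt2-/- replicate 13, where 375 genes of the whole table passed. In CE against Control 0 passed, where 0.0064% of all genes did. DESeq2 gave 1 (1.2% of all genes), limma voom 1 (3.46%) and leaving out single mice 0 to 1. The 1 came without Control replicate 4, where 68 genes of the whole table passed. For the interaction 0 passed, and 1 by DESeq2 (0.263% of all genes).

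The log2 fold change of Pdk1 in Sirt2-/- against Control was -0.90 with the clock covariate, -1.25 with 2 groups alone, -0.99 without the 4 mice of low score and -1.40 to -1.14 without single mice. Its adjusted p ran from 0.0111 to 0.103 without single mice and from 0.000227 to 0.321 under the other alternatives. In CE against Control it was -1.09 by DESeq2, -1.14 by limma voom and -1.24 to -0.99 without single mice. The interaction was 1.65 by DESeq2 and 1.46 to 1.81 without single mice. It was 1.37 with the clock covariate and 1.32 without the 4 mice of low score. The sign of Pdk1 did not change under any alternative in any comparison. Over all comparisons and genes, 64 of 1085 alternative fold changes had another sign than the reported one, in 22 of 50 pairs of gene and comparison, where the reported value was at most 0.40 in size. Without CE replicate 6 the value of Pdk3 in CE against Control went from 0.31 to -0.29.

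The pathway lists together had 3 passing genes in Sirt2-/- against Control, 8 by DESeq2 (3.89% of all genes) and 5 by library size alone (2.68% of all genes). DESeq2 made 3 calls in CE against Control (1.2% of all genes), 1 in Sirt2-/-/CE against CE (0.199%) and 1 for the interaction (0.263%), where edgeR made 0. Over the whole table DESeq2 called 607 genes in Sirt2-/- against Control and limma voom 906, against 139 by edgeR, and in CE against Control 188 and 540, against 1. The share of Pdk1 among the kinases by CPM, without gene length, was 47.7% in Control, 33.0% in CE, 34.2% in Sirt2-/- and 39.7% in Sirt2-/-/CE. Per merged exon length 2 genes (Dlat and Pdhx) changed place in the order of levels, and 0 to 2 without single mice, 2 of them without CE replicate 9 or 10 or Sirt2-/- replicate 14 or 15. The cause of these differences was not tested. Counts per mouse were lowest for Pdk3 (8 to 47) and Pdp1 (28 to 112).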
